A study of Saccharomyces cerevisiae with 12 samples.

Results

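H3i is a budding yeast strain (line DGS200.1, derived from YEF473A per the labels' growth protocol) in which histone H3 can come from HHT2 alone: HHT1 was knocked out, and the native promoter of HHT2 was replaced by the GAL1 promoter. H3i cells switched to glucose medium (YPD), where the GAL1 promoter is shut, were compared with H3i cells in galactose medium (YPGal), where it is active. The comparison therefore holds the loss of H3 message and the change of sugar together. The 6 libraries titled H3i, 3 in YPD and 3 in YPGal, were taken from 12 libraries in all. The other 6 are wild type (WT) in YPD and in YPGal, 3 each, from a line labelled YEF4734A, a name that differs from that of the H3i parent. They share the estimate of spread, set the level classes used below, give levels beside those of H3i, and serve to test whether the H3i response to the medium differed from that of WT. How long the H3i cells had been in glucose when they were taken is not stated in the labels, and H3 protein was not measured. All H3i libraries carry the single line DGS200.1.

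Poly(A) RNA was sequenced. Replicates 1 and 2 were extracted and made into libraries with other kits than replicate 3, so that the replicate number also marks the kit. Gene counts of the H3i libraries totalled 2176277 in YPD and 2395482 in YPGal for replicate 1, 40950610 and 44818520 for replicate 2, and 11628815 and 10032471 for replicate 3. Levels are given in CPM, the counts of a gene per 1e6 gene counts of its library, and fold changes as log2 of YPD over YPGal with their standard error (SE). Genes were tested with edgeR on replicates 1 and 3 of all 4 groups with a replicate term (n = 2 per group), because replicate 2 had lost the counts of many genes, and a gene is said to have risen or fallen where the Benjamini-Hochberg adjusted p was under 0.05. Both WT libraries of replicate 3 carried other marker and mating-type genes than the WT libraries of replicate 1.

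Nucleosomes are built around a tetramer of histones H3 and H4, to which dimers of H2A and H2B are added, and each round of DNA replication needs a fresh supply of all 4. Cells that cannot make H3 are left with fewer nucleosomes per genome, and nucleosomes over promoters and gene bodies limit access of transcription factors and RNA polymerase II to DNA. In galactose the activator Gal4 drives the galactose genes from sites of the form CGG, 11 bases and CCG, and glucose shuts this system through Mig1 and the loss of the inducing signal.

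The upstream sequences of the genes that define the strain and its medium are shown because HHT2 of H3i answers to the first of them in place of its own. They were read from the sacCer3 genome (RefSeq R64), which is the reference strain and not H3i, 5′ to 3′ on the gene's strand, with matches to the named motif in capitals. The searched window was the 500 bases before the coding start for Gal4 (CGG, 11 bases of any kind, CCG), Rap1 (ACCCNTACA) and Pho4 (CACGTG), and 800 bases for the histone upstream element that Spt10 binds (TTCC, 6 bases of any kind, TTC, any base, C), on both strands. In GAL2 2 matches of the Gal4 motif overlap.
GAL1, chrII:278551-278641, plus strand, Gal4: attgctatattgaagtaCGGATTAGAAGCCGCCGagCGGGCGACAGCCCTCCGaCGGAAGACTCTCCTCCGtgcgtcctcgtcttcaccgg
GAL2, chrXII:289782-289912, plus strand, Gal4: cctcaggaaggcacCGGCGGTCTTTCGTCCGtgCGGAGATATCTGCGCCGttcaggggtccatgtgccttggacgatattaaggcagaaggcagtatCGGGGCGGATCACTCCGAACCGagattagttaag
GAL7, chrII:275687-275737, minus strand, Gal4: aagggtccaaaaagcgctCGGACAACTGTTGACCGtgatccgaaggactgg
HHT2, chrXIV:576326-576380, minus strand, histone element: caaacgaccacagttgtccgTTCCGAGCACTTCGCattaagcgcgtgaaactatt
HHT1, chrII:255926-255980, plus strand, histone element: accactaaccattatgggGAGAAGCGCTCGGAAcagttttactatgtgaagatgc
RPL43B, chrX:607995-608045, plus strand, Rap1: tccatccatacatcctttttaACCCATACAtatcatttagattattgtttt
PHO5, chrII:431176-431226, minus strand, Pho4: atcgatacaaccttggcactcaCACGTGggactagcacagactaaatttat
The Gal4 motif stood before 9 of 10 galactose genes and before 2.95% of all 6001 ORFs. GAL1 has 3 matches within the 91 bases printed and GAL2 has 4 within 131. Each of the 4 H3 and H4 genes has the histone element, against 4.68% of all ORFs, and HHT2 shares the 676 bases that hold it with its neighbour HHF2. The Rap1 motif was found before 24.6% of 138 ribosomal protein genes and 1.80% of all ORFs, and the Pho4 motif before 60.0% of 25 phosphate genes and 6.23% of all ORFs.

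HHT2 message was nearly absent from H3i YPD. HHT2 (YNL031C) stood at 14.7, 21.5 and 30.3 CPM in H3i YPD (replicates 1, 2 and 3), against 3694, 4353 and 2284 CPM in H3i YPGal. The YPD libraries were all far below the YPGal libraries of H3i and below the WT libraries (781 to 1300 CPM). The log2 fold change was −7.42 ± 0.57 SE (n = 2 per group, edgeR adjusted p = 0.000762). HHT1 (YBR010W), the knocked-out gene, was at 0, 2.66 and 0 CPM in H3i YPD and at 3.34, 1.09 and 0.0997 CPM in H3i YPGal, so the H3 message of H3i came almost wholly from HHT2 in these libraries. GAL1, whose promoter drives HHT2 in H3i, stood at 74.0, 42.5 and 99.0 CPM in H3i YPD, against 10653, 11778 and 3956 CPM in H3i YPGal (−6.69 ± 0.73).

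The H4 genes did not move together. HHF1, the H4 gene beside the deleted HHT1, stood at 1169, 1173 and 1180 CPM in H3i YPD, against 1087, 1232 and 1057 CPM in H3i YPGal, and its change did not pass the test (−0.27 ± 0.27, edgeR adjusted p = 0.455). HHF2 (YNL030W), which faces HHT2 across their shared upstream region, stood at 28.5, 8.74 and 58.9 CPM in H3i YPD, against 63.9, 5.13 and 125 CPM in H3i YPGal, with 647 to 1306 CPM in the WT libraries. HHF2 was thus low in H3i in both media, and the further fall in YPD (−1.50 ± 0.34) was in replicates 1 and 3 but not in replicate 2. IPP1, an inorganic pyrophosphatase next to the HHT1 locus, fell (−1.83 ± 0.32), from a list of 5 neighbours of the H3 loci of which 2 fell and 0 rose (1 without H3i YPD replicate 1 or H3i YPGal replicate 3).

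The 7 other histone genes had 3 members that fell (42.9%) and 0 that rose, against 22.2% and 21.4% over all features. The falls did not follow histone type. Among the H2A and H2B genes HTA1 (−0.03 ± 0.29), HTB1 (−0.07 ± 0.30) and HTA2 (−0.55 ± 0.27) did not pass the test, and HTB2 fell (−1.24 ± 0.28). HTZ1, the H2A variant found at promoter nucleosomes, stood at 47.8, 44.0 and 48.6 CPM in H3i YPD, against 113, 168 and 155 CPM in H3i YPGal (−1.86 ± 0.24). HHO1, the linker histone H1, stood at 73.1, 61.7 and 60.4 CPM in H3i YPD, against 203, 266 and 164 CPM in H3i YPGal (−1.85 ± 0.21). In both genes all 3 YPD libraries were below all 3 YPGal libraries, a separation whose share over all features was not counted. Both lie on strands that replicate 2 kept. The centromeric H3 variant CSE4 did not pass the test (−0.77 ± 0.28, edgeR adjusted p = 0.0536). The HHF2 call depended on H3i YPD replicate 1 (edgeR adjusted p = 0.0533 when it was left out) and on H3i YPGal replicate 3 (0.0914). That of HTB2 depended on replicate 1 in both media, with an edgeR adjusted p of 0.0697 when the YPD library was left out and 0.0835 when the YPGal library was.

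**Figure D1:**
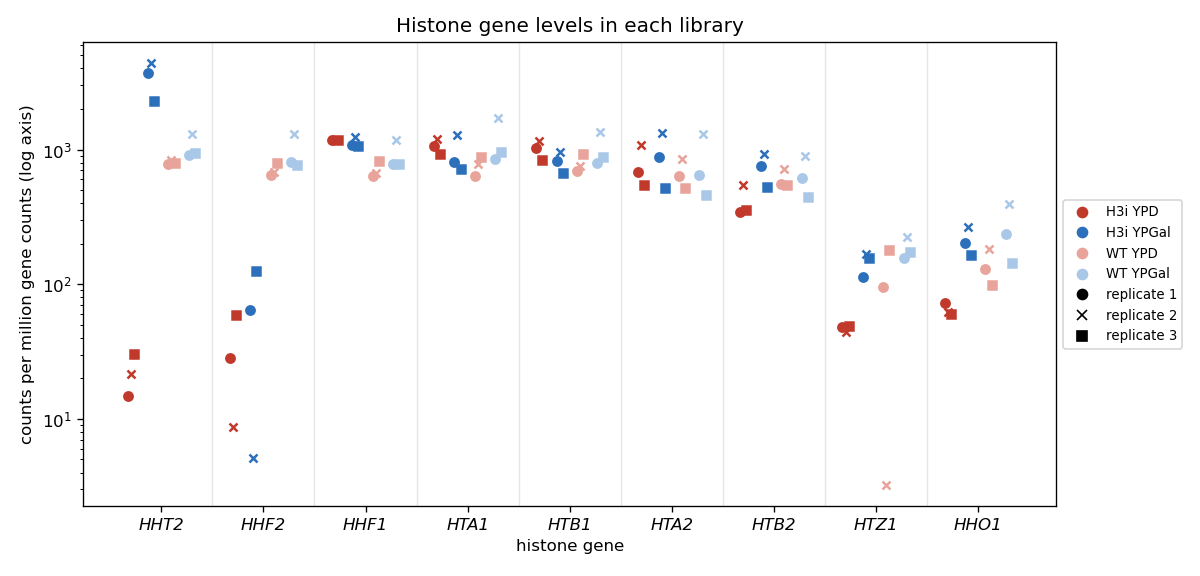
Levels of 9 histone genes in each of the 12 libraries, in CPM on a log axis, coloured by group with a marker for each replicate. HHT2 lies at 14.7 to 30.3 CPM in H3i YPD, against 2284 to 4353 CPM in H3i YPGal, HHF2 is low in H3i in both media, and HHF1 is level across the H3i libraries.

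Regulators of histone genes were also measured. Of 12 such genes 6 rose and 1 fell, with a median of 0.73 against 0.03 over all features tested, of which 21.4% rose and 22.2% fell. Scaling by library totals gave 10 higher and 0 lower. HIR1 (1.48 ± 0.30), HIR3 (1.15 ± 0.23) and HPC2 (1.08 ± 0.26) encode subunits of the HIR complex, which represses histone genes outside S phase and deposits H3 and H4, and SPT10 (1.11 ± 0.28) encodes the factor that binds the histone element shown above. Leaving out H3i YPGal replicate 3 brought the count of 6 to 0, with edgeR adjusted p of 0.0779 for HIR1, 0.0871 for HIR3 and 0.147 for HPC2, and leaving out H3i YPGal replicate 1 brought it to 3. The call of SPT10 was lost without H3i YPD replicate 1 (edgeR adjusted p = 0.072) or H3i YPGal replicate 1 (0.0791) or 3 (0.140), and that of HPC2 also without H3i YPD replicate 3 (0.0796). Histone chaperone genes went both ways. Of 20 such genes 6 rose (30%) and 4 fell (20%), with a median of 0.04. The 6 were 3 without H3i YPGal replicate 1 and 1 without H3i YPGal replicate 3. Those that fell included NHP6A, an HMG protein that works with the chaperone FACT (−2.49 ± 0.31), and CHZ1, a chaperone of HTZ1 (−1.49 ± 0.24).

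The change reached a large share of the genome. Of 6354 features tested 2769 were called (43.6%), 1361 higher (21.4%) and 1408 lower (22.2%) in H3i YPD. In WT the same media gave 49 calls (0.771%), 6 higher (0.0944%) and 43 lower (0.677%). The difference of the 2 responses, tested in the same fit, was called for 1756 features (27.6%), 835 higher (13.1%) and 921 lower (14.5%) in H3i. Without both WT libraries of replicate 3 the WT count was 493, and with single libraries left out it lay between 4 (WT YPD replicate 1) and 381 (WT YPGal replicate 3). Without the replicate block there were 1183 calls in H3i and 25 differences, with all 12 libraries and a replicate block 539 and 202, and with a kit term in its place 4 and 1. The count of differences was 623 without WT YPD replicate 1, 524 without H3i YPGal replicate 1 and 752 without H3i YPGal replicate 3. With every one of the 8 libraries left out in turn, 903 of the 2769 kept their call, 352 higher and 551 lower. The counts were 1285 without H3i YPGal replicate 1 and 1201 without H3i YPGal replicate 3, and scaling by library totals moved the median of all genes up by 0.39 and gave 2027 higher and 880 lower. Across the 6354 features the log2 ratios of replicate 1 and of replicate 3 correlated at r = 0.86, a description over genes that share their libraries.

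The direction of change differed by the level that a gene has in WT. ORFs were classed by their mean CPM per kb in WT YPGal, in libraries that are not part of the H3i contrast. ORFs under 5 CPM per kb are left out here, because below 1 CPM per kb only 91 of 221 passed the filter on low counts, which an ORF high in H3i YPD alone could pass. From 5 to 20 CPM per kb 637 of 639 ORFs were tested, and 65.6% rose and 0.157% fell in H3i YPD, with a median log2 of 1.54. The middle class of 2844 ORFs at 20 to 100 CPM per kb had 19.7% higher and 6.89% lower, with a median of 0.20. Above 500 CPM per kb 77.2% of 416 ORFs fell and 1.20% rose, with a median of −1.81. The matching medians in WT lay between −0.18 and 0.30. With library totals the medians of the classes at 5 to 20 and above 500 were 1.94 and −1.41.

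As shares of all gene counts, ORFs above 500 CPM per kb held 21.5%, 22.5% and 16.5% of the counts in H3i YPD, against 43.0%, 41.8% and 28.9% in H3i YPGal. Those from 20 to 100 CPM per kb held 38.3%, 35.1% and 42.1% in H3i YPD, against 21.8%, 20.6% and 27.5% in H3i YPGal. The 3 YPD libraries lay apart from the 3 YPGal libraries in both classes. In replicates 1 and 3, 95.5% and 96.1% of the 6001 ORFs reached 5 CPM in H3i YPD, against 90.5% and 92.3% in H3i YPGal. CPM is a share of a library, so less RNA of highly expressed genes and more RNA of the others cannot be told apart, nor can fewer cells and less RNA per cell.

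Longer ORFs rose more often. Within the class at 20 to 100 CPM per kb, which holds expression roughly level, 34.9% of 307 ORFs over 3000 bases rose, against 11.0% of 581 ORFs of over 500 and up to 1000 bases and 16.9% of 178 ORFs up to 500 bases. The shares that fell were 2.28%, 9.81% and 8.43%, and the median log2 values 0.45, −0.02 and 0.02. Over all levels the fit gave medians of 0.76 for ORFs over 3000 bases and −0.42 for those up to 500 bases. In replicate 2 on the kept strands these were 0.39 for 50 ORFs and 0.53 for 77 ORFs. The shortest ORFs thus went the other way there. By chromosome the median log2 lay between −0.14 on chromosome II and 0.27 on chromosome I.

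**Figure D2:**
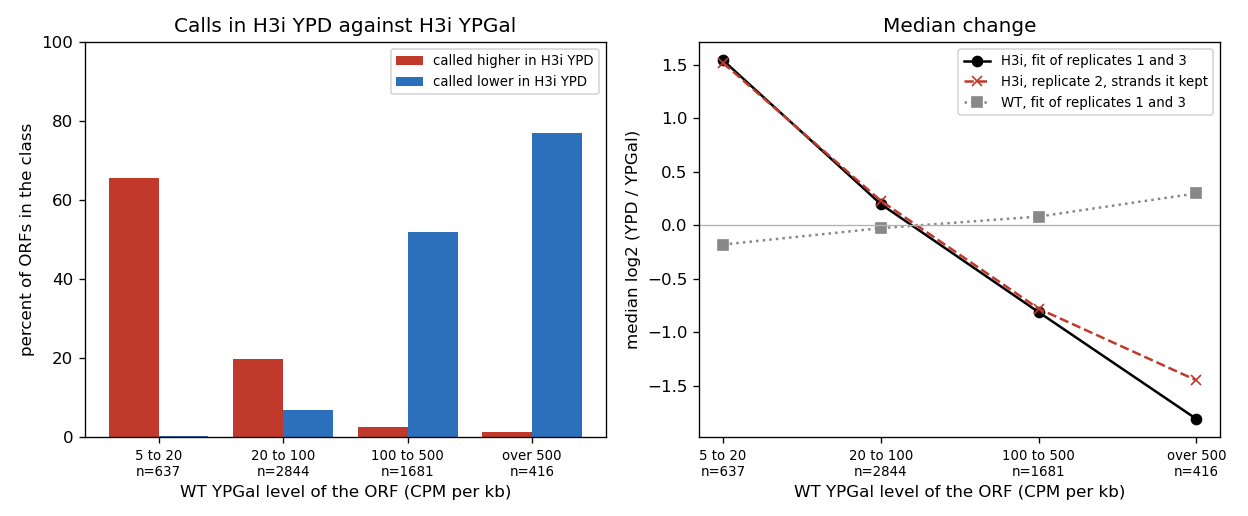
Left, percent of ORFs called higher (red) and lower (blue) in H3i YPD against H3i YPGal, by WT YPGal level in CPM per kb; right, median log2 of YPD over YPGal in the same classes for H3i in replicates 1 and 3, for H3i in replicate 2 on the strands it kept, and for WT. The H3i medians go from 1.54 at 5 to 20 CPM per kb to −1.81 above 500, and the WT medians stay between −0.18 and 0.30.

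Replicate 2 was checked on its own. An ORF was counted as lost where it had at least 50 CPM in replicates 1 and 3 of a group and under 0.1 of their mean in replicate 2. In H3i YPD 21.8% of 4547 ORFs were lost, and in H3i YPGal 46.8% of 3677. The loss depended on the strand: 10.9% of plus-strand and 32.9% of minus-strand ORFs in H3i YPD, against 19.8% and 73.7% in H3i YPGal. The minus strand of chromosome X, for example, lost 49.2% of its ORFs in H3i YPD and 95.1% in H3i YPGal, and its plus strand 4.38% and 14.0%, while on chromosome XV the plus strand lost 48.8% in H3i YPD and 78.0% in H3i YPGal and the minus strand 1.98% and 4.29%. WT replicate 2 had 41.3% of ORFs lost in YPD and 45.8% in YPGal. By the same measure replicate 1 set against replicate 3 lost 0% in H3i YPD and 0.481% in H3i YPGal.

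Where replicate 2 kept its counts it moved with the other replicates. On the 4 chromosome strands with at most 5% of ORFs lost in both H3i media (both strands of chromosome I and the minus strands of XV and XVI), 239 of 569 tested ORFs were called from replicates 1 and 3. In replicate 2, 111 of the 115 that rose were also higher and 122 of the 124 that fell were also lower, which is 97.5%. The strands were chosen by the loss measure, which sets replicate 2 against replicates 1 and 3, so the choice favours this agreement. On all other strands 71.2% of 2368 called ORFs had the same direction, with 1008 of 1102 of those that rose and 678 of 1266 of those that fell. Fitting all 6 H3i libraries with a replicate block on the kept strands alone (n = 3 per medium, scaled on those ORFs, an alternative chosen after seeing the data) called 189 of 573 ORFs, 98 higher and 91 lower. Of these 189, 165 were among the 239 calls, all 165 in the same direction. Among called genes named below or above, HHF2, HPC2, HXT1, EGD2, RPB5, GRS1, SEM1, SSS1, ATG2, MEC1, FAR1, LYS1, FRE3, ZPS1 and MRPL8 had the opposite direction in replicate 2, and none of them lies on a kept strand. The same 6 libraries over the whole genome gave 0 calls at the adjusted threshold and 1141 genes at an unadjusted p under 0.05 by edgeR. On the kept strands the medians by WT level in replicate 2 were 1.52 for 62 ORFs at 5 to 20 CPM per kb, −0.78 for 154 ORFs at 100 to 500 and −1.45 for 29 ORFs above 500.

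**Figure D3:**
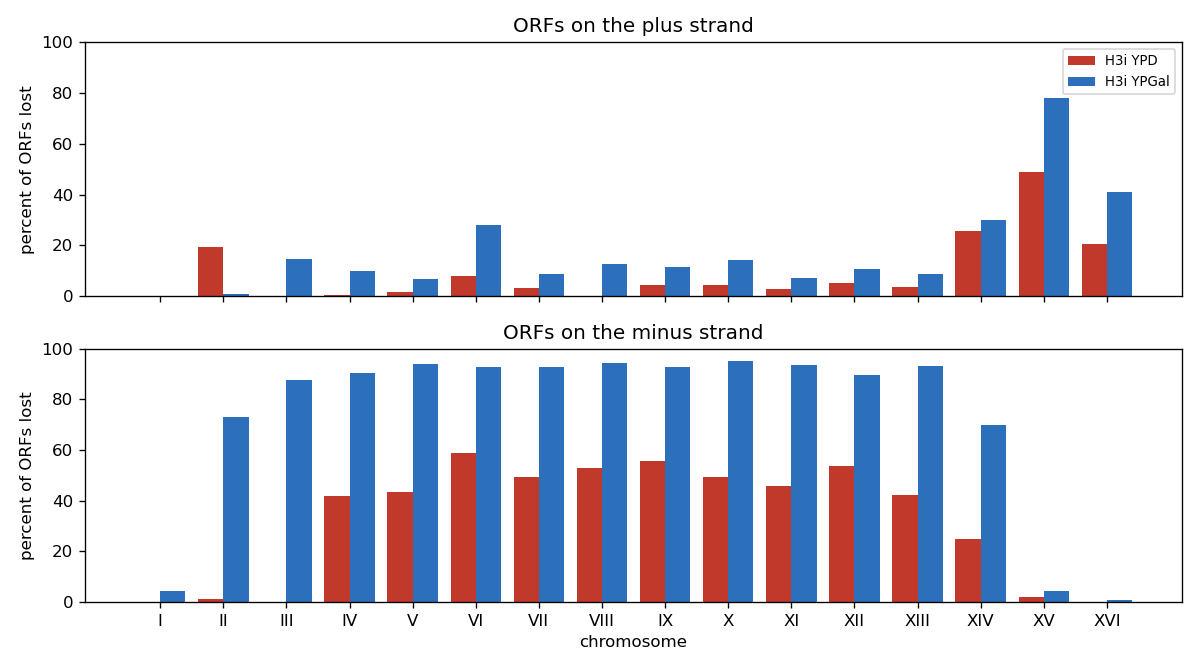
Percent of ORFs lost in replicate 2 of H3i YPD (red) and H3i YPGal (blue) by chromosome, for the plus strand (top) and the minus strand (bottom). The minus strand of chromosome X reaches 95.1% in H3i YPGal, while chromosome I and the minus strands of XV and XVI stay at 4.35% or less.

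Counting did not use the strand. All 13 annotated features that lie wholly inside a feature of the opposite strand, such as VAM10 and IME4, had 0 counts in all 12 libraries. A gene's value therefore includes any antisense RNA over it, and sense and antisense cannot be told apart in the results below.

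Of 10 galactose genes 9 fell and 0 rose in H3i, with a median of −3.14. GAL2, the galactose transporter, stood at 46.9, 34.3 and 59.3 CPM in H3i YPD, against 10901, 10909 and 3689 CPM in H3i YPGal (−7.29 ± 1.003). GAL10 (−5.48 ± 0.57) and GAL7 (−5.03 ± 0.78), whose products act with GAL1 in galactose breakdown, were higher in H3i YPD than in WT YPD: GAL7 stood at 210, 380 and 138 CPM in H3i YPD and at 2.59, 10.48 and 12.96 CPM in WT YPD. The difference of responses was called for both, at 2.73 ± 0.69 for GAL10 and 3.36 ± 0.98 for GAL7.

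Among 17 tested hexose transporters 13 rose (76.5%) and 0 fell, with a median of 3.30, against 21.4% and 22.2% over all features. HXT1 (4.98 ± 0.33) and HXT3 (4.45 ± 0.46) are low-affinity carriers used at high glucose, and in replicate 2 HXT1 ran the other way, at 3.66 CPM in H3i YPD, against 24.4 CPM in H3i YPGal. In WT their log2 values were 6.43 and 5.93. HXT9, a further carrier of the family, stood at 146, 224.8 and 147 CPM in H3i YPD, against 0.417, 2.34 and 1.59 CPM in H3i YPGal (6.58 ± 0.59), and at 0.432 to 1.98 CPM in the WT libraries of replicates 1 and 3. Without H3i YPGal replicate 1 or replicate 3 the count of 13 was 8 or 7. IMA1, an isomaltase, rose (4.73 ± 0.35). SUC2, invertase, fell (−3.13 ± 0.64), and MIG2, a glucose repressor, rose (2.31 ± 0.37).

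Of 20 enzymes of pyruvate, ethanol and acetate metabolism 7 rose (35%) and 3 fell (15%), against 21.4% and 22.2% over all features. PDC5, a pyruvate decarboxylase that is normally a reserve for PDC1, stood at 1249, 1945 and 877 CPM in H3i YPD, against 21.7, 50.6 and 20.1 CPM in H3i YPGal (5.30 ± 0.52). PDC6, a further isozyme known for its induction by low sulfur, stood at 1226 and 413 CPM in H3i YPD, against 1.25 and 5.78 CPM in H3i YPGal (replicates 1 and 3, 7.34 ± 0.92), with 8.28 and 0.134 CPM in replicate 2, on a strand with many losses. The main enzyme PDC1 did not pass the test (−0.12 ± 0.55), and neither did ADH1 (0.11 ± 0.44). HXK2, the hexokinase that also acts in glucose repression, fell (−1.91 ± 0.39), a call lost without H3i YPD replicate 1 (edgeR adjusted p = 0.0620). The glyceraldehyde-3-phosphate dehydrogenase gene TDH1 stood at 2235, 3225 and 1312 CPM in H3i YPD, against 150, 466 and 658 CPM in H3i YPGal (2.50 ± 0.80), but its call was lost without H3i YPD replicate 1 (edgeR adjusted p = 0.488), H3i YPGal replicate 1 (0.199) or replicate 3 (0.126), or WT YPGal replicate 3 (0.0549).

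Genes of protein synthesis were lower in H3i YPD, as were most highly expressed ORFs. Of all ORFs above 500 CPM per kb in WT YPGal 77.2% fell (median −1.81). Among those at 100 to 500 CPM per kb 51.9% fell (median −0.81). The part of expression level was not tested in the counts below for ribosomal, translation, polymerase, mitochondrial, vacuolar ATPase and proteasome genes. Ribosomal proteins of the cytosol had 131 of 138 members that fell and 0 that rose (median −1.97), and together they held 31452, 37889 and 32952 CPM in H3i YPD, against 121656, 130409 and 74764 CPM in H3i YPGal. RPL43B, whose upstream sequence is shown above, stood at 90.98, 174 and 91.2 CPM in H3i YPD, against 587, 1042 and 368 CPM in H3i YPGal (−2.75 ± 0.30). The 3 YPD values lay below the 3 YPGal values, but the share of all features with such a separation was not counted. In WT YPD the median of the list was 0.84, and the difference of responses was called lower in H3i for 131 members and higher for 0. Paralogous ribosomal protein genes are alike in sequence, and reads could be split between copies.

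Of 39 tested translation factors 29 fell (74.4%) and 2 rose (5.13%), with a median of −1.40, against 22.2% and 21.4% over all features. EGD1 and EGD2 encode the nascent polypeptide-associated complex, which binds new chains at the ribosome: EGD1 stood at 104.8, 198 and 152 CPM in H3i YPD, against 581, 915 and 603 CPM in H3i YPGal (−2.62 ± 0.31), and EGD2 fell as well (−2.88 ± 0.30). CDC33, the cap-binding factor eIF4E, stood at 113, 194 and 195 CPM in H3i YPD, against 527, 983 and 607 CPM in H3i YPGal (−2.33 ± 0.30). ANB1, the low-oxygen form of eIF5A, rose (4.65 ± 1.31), a call lost without H3i YPGal replicate 1 (edgeR adjusted p = 0.113) or replicate 3 (0.110). Of 20 cytosolic tRNA synthetases 11 fell and 0 rose (median −0.94), among them those for glycine, GRS1 (−1.81 ± 0.29), and serine, SES1 (−1.74 ± 0.30). In WT YPD the medians of both lists were above 0 (0.62 and 0.72). Without H3i YPGal replicate 1 the 29 factors became 15 and the 11 synthetases 3, and the synthetases were 5 without H3i YPD replicate 1 and 7 without H3i YPGal replicate 3.

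RNA polymerase genes gave fewer calls than translation genes. Of 36 genes for RNA polymerase II and its general factors 14 fell and 2 rose (median −0.52), and of 37 for RNA polymerases I and III 11 fell and 4 rose (median −0.09). The shares that fell were 38.9% and 29.7%, against 22.2% over all features. Those that rose were 5.56% and 10.8%, against 21.4%. The median over all features was 0.03, near that of polymerases I and III. The members that fell included small shared subunits, as RPO26 (−1.84 ± 0.26), RPB5 (−1.74 ± 0.26) and RPC10 (−1.61 ± 0.24). Without H3i YPGal replicate 1 the counts of 14 and 11 were 7 and 4, without H3i YPGal replicate 3 the first was 9, and without H3i YPD replicate 1 the second was 7. Scaling by library totals turned the count of polymerases I and III to 11 higher and 9 lower, and gave 6 higher and 9 lower for polymerase II.

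Of 56 mitochondrial ribosomal protein genes 53 fell (median −1.48), as MRPL8 (−2.52 ± 0.27), and of 38 genes of oxidative phosphorylation 34 fell (median −2.62). ATP19, of the ATP synthase, stood at 10.1, 1.37 and 37.0 CPM in H3i YPD, against 258, 598 and 231 CPM in H3i YPGal (−3.78 ± 0.51), and COX12, of cytochrome c oxidase, fell (−3.33 ± 0.42). The WT medians were −0.64 and −1.47, and the difference of responses was called lower in H3i for 22 and 2 members. Of 18 genes of the vacuolar ATPase, the proton pump that acidifies the vacuole, 14 fell and 0 rose (median −0.88), and of 36 proteasome genes 23 fell and 0 rose (median −0.84). VMA11 stood at 77.7, 114 and 92.2 CPM in H3i YPD, against 166, 430 and 187 CPM in H3i YPGal (−1.46 ± 0.23), and SEM1, a proteasome lid subunit, fell (−1.76 ± 0.23). Scaling by library totals left 5 of the 14 and 12 of the 23. The count of 14 was 2 to 4 without any 1 of the 4 H3i libraries, and the count of 23 was 10 and 4 without H3i YPGal replicates 1 and 3, 9 without H3i YPD replicate 1 and 14 without H3i YPD replicate 3.

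Genes that hold chromosomes together rose. Of 18 cohesin and condensin genes 13 rose (72.2%) and 0 fell (median 1.12), against 21.4% and 22.2% over all features. The difference from the WT response was called for 8 of these genes. YCS4, a condensin subunit, stood at 411, 36.6 and 396 CPM in H3i YPD, against 72.6, 10.9 and 98.6 CPM in H3i YPGal (1.87 ± 0.26). SCC2, which loads cohesin, stood at 231, 413 and 281 CPM in H3i YPD, against 42.2, 59.1 and 69.2 CPM in H3i YPGal (1.85 ± 0.29). ESP1, the separase that opens cohesin at anaphase, rose (1.65 ± 0.23), as did RAD61 (1.63 ± 0.28). The part of ORF length in this count was not tested. The count of 13 was 6 without H3i YPGal replicate 1 or replicate 3 and 8 without H3i YPD replicate 3.

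Of 48 kinetochore and spindle genes 10 rose and 3 fell (median 0.18), against 21.4% and 22.2% over all features, and 20 rose and 3 fell with library totals. MIF2, an inner kinetochore protein that binds the centromeric nucleosome of CSE4, stood at 428, 889 and 536 CPM in H3i YPD, against 27.1, 69.7 and 43.9 CPM in H3i YPGal (3.40 ± 0.24). The spindle genes KIP3 (2.07 ± 0.23) and STU1 (2.13 ± 0.28) and the checkpoint kinase gene BUB1 (2.11 ± 0.28) rose. The count of 10 was 6 without H3i YPGal replicate 3.

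Replication genes had 10 of 45 members higher and 1 lower (median 0.30), which is 22.2% higher against 21.4% over all features, and 19 rose with library totals. POL3, the catalytic subunit of DNA polymerase delta, stood at 413, 1036 and 573 CPM in H3i YPD, against 98.9, 96.5 and 137 CPM in H3i YPGal (1.66 ± 0.21). POL2 (1.82 ± 0.26) and CDC45 (1.29 ± 0.23) rose. Without H3i YPGal replicate 1, H3i YPGal replicate 3 or H3i YPD replicate 3 the count of 10 was 4, 3 or 6. Of 29 DNA damage response genes 14 rose (48.3%) and 1 fell (3.45%), against 21.4% and 22.2% over all features. The median was 0.85, and 7 rose without H3i YPGal replicate 3. MEC1, the checkpoint kinase that senses stalled forks and DNA breaks, stood at 240, 38.97 and 282 CPM in H3i YPD, against 35.9, 92.4 and 28.0 CPM in H3i YPGal (2.65 ± 0.26); replicate 2 lay the other way. HUG1, an inhibitor of ribonucleotide reductase, stood at 828, 809 and 553 CPM in H3i YPD, against 6.68, 4.89 and 5.78 CPM in H3i YPGal (6.51 ± 0.67).

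Of 24 cyclin and inhibitor genes 11 fell (45.8%) and 2 rose (8.33%), against 22.2% and 21.4% over all features. The median was −0.28 and became 0.11 with library totals. CLB2, the main mitotic cyclin, stood at 33.5, 41.3 and 54.1 CPM in H3i YPD, against 127, 54.3 and 138 CPM in H3i YPGal (−2.04 ± 0.26). CLN1, a G1 cyclin, stood at 64.8, 85.3 and 93.0 CPM in H3i YPD, against 283, 310 and 290 CPM in H3i YPGal (−2.24 ± 0.29), and FAR1, which holds G1 cyclin kinase in check, fell (−2.31 ± 0.39). In replicates 1 and 3 the groups did not overlap for CLB2, CLN1 or FAR1. These genes were named for the size of their called change, so the separation is no further support. The share of all features without overlap was not counted. The count of 11 was 6 without H3i YPGal replicate 1 and 7 without H3i YPGal replicate 3. AMN1, which acts in mitotic exit and daughter cell separation, fell (−2.73 ± 0.36).

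Of 43 genes of remodelling complexes 10 rose and 9 fell (median −0.04), which is 23.3% and 20.9% against 21.4% and 22.2% over all features, so these shares were near the background. With library totals 16 rose and 4 fell. SWI/SNF genes went both ways, with SNF5 higher (1.61 ± 0.25) and SNF11 lower (−1.67 ± 0.26). The 10 were 4 without H3i YPGal replicate 1, 2 without H3i YPGal replicate 3 and 6 without H3i YPD replicate 3. Among 18 silencing and telomere factors 4 rose and 0 fell, with the share that rose, 22.2%, near the 21.4% of all features, and with library totals 9 rose. RIF1, a partner of Rap1 at telomeres, stood at 294, 556 and 324 CPM in H3i YPD, against 99.4, 2.23 and 85.9 CPM in H3i YPGal (1.34 ± 0.21). SIR4 (1.36 ± 0.25) encodes a silencing scaffold, and its call was lost without H3i YPGal replicate 3 (edgeR adjusted p = 0.0652), without which 1 of the 4 was left; 2 were left without H3i YPGal replicate 1. RAP1 did not pass the test (−0.19 ± 0.23, edgeR adjusted p = 0.520).

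**Figure D4:**
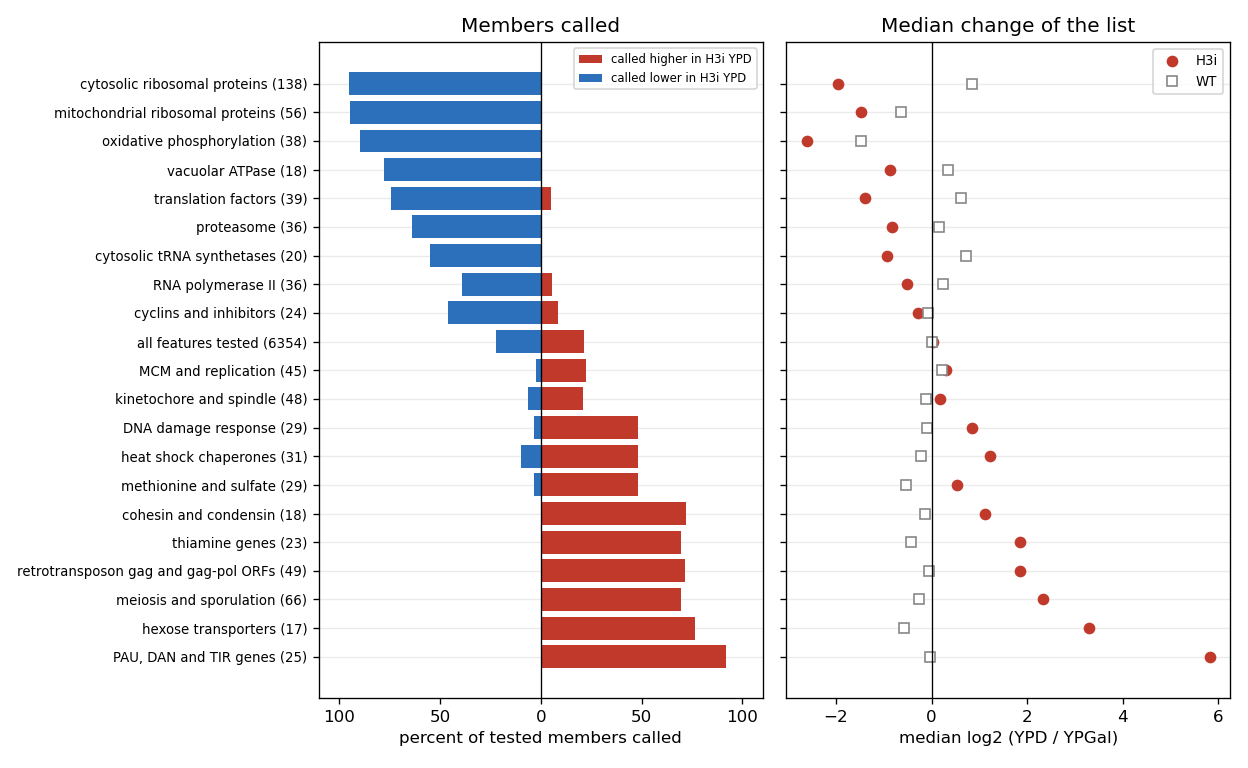
Left, percent of the tested members of each gene list called higher (red, to the right) or lower (blue, to the left) in H3i YPD against H3i YPGal, with the number tested in brackets; right, median log2 of YPD over YPGal of each list in H3i and in WT. Cytosolic ribosomal protein, translation and vacuolar ATPase genes lie to the left in H3i and to the right of 0 in WT. Thiamine, cohesin and retrotransposon ORFs lie to the right in H3i.

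Thiamine genes, which make or import the cofactor of pyruvate decarboxylase, had 16 of 23 members higher (69.6%) and 0 lower. Over all features 21.4% rose and 22.2% fell. The median of the list was 1.85, and the WT median was −0.42. THI4, a thiazole synthase, stood at 556, 826 and 415 CPM in H3i YPD, against 3.34, 8.75 and 14.7 CPM in H3i YPGal (5.51 ± 0.55). THI5, a pyrimidine synthase of the same pathway, stood at 305, 157 and 216 CPM in H3i YPD, against 1.25, 3.24 and 1.10 CPM in H3i YPGal (7.37 ± 0.59). THI12 (4.94 ± 0.45) and THI13 (5.42 ± 0.54) rose too, but THI5, THI12 and THI13 are near-identical copies that could share reads. The difference from the WT response was called higher for 15 members and lower for 1. The count of 16 was 10 without H3i YPGal replicate 3.

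In sulfur metabolism 14 of 29 genes rose (48.3%) and 1 fell (3.45%), with a median of 0.54, against 21.4% and 22.2% over all features. STR3, a cystathionine beta-lyase, rose (2.88 ± 0.46), as did MET3, the ATP sulfurylase (2.69 ± 0.53), and MET14, the APS kinase (2.45 ± 0.43). MET3 stood at 471, 374 and 368 CPM in H3i YPD, against 32.1, 33.3 and 94.1 CPM in H3i YPGal, and its call was lost without H3i YPGal replicate 1 (edgeR adjusted p = 0.0534). The count of 14 was 4 without H3i YPGal replicate 1, 8 without H3i YPD replicate 1 and 7 without H3i YPGal replicate 3.

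PHO5, the acid phosphatase whose promoter is a textbook case of nucleosomes blocking activator sites, stood at 793, 1051 and 538 CPM in H3i YPD, against 21.3, 2.72 and 94.0 CPM in H3i YPGal (3.92 ± 0.93). The groups did not overlap, but the share of all features without overlap was not counted, so this is no further support. WT replicate 3 stood at 676 CPM in YPD and 560 CPM in YPGal. The call was lost without H3i YPGal replicate 1 (edgeR adjusted p = 0.0818) or replicate 3 (0.0793). GIT1, a glycerophosphoinositol transporter, stood at 222, 354 and 243 CPM in H3i YPD, against 3.34, 0 and 9.47 CPM in H3i YPGal (4.90 ± 0.42). The phosphate list had 8 of 25 members higher (32%) and 3 lower (12%), with a median of 0.46, against 21.4% and 22.2% over all features. The 8 were 2, 4 and 2 without H3i YPGal replicate 1, H3i YPD replicate 1 and H3i YPGal replicate 3.

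Of 30 iron regulon genes 9 rose and 6 fell, against 21.4% and 22.2% over all features (13 and 1 with library totals), with the iron reductases FRE2 (3.59 ± 0.48) and FRE3 (2.47 ± 0.38) among those higher. The 9 were 5 without H3i YPGal replicate 1 and 3 without H3i YPGal replicate 3. Of 13 tested zinc and copper genes 3 rose (23.1%) and 5 fell (38.5%), with a median of −0.43, against the same 21.4% and 22.2%. The 5 were 2 without H3i YPGal replicate 1 and 3 without H3i YPD replicate 1, H3i YPGal replicate 3 or H3i YPD replicate 3. ZPS1, a protein made under zinc limitation, rose (3.45 ± 0.28). Of 25 genes of autophagy and vacuolar proteolysis 10 rose (40%) and 1 fell (4%), with a median of 0.54, against the same 21.4% and 22.2%. ATG13, of the kinase complex that starts autophagy, stood at 333, 806 and 446 CPM in H3i YPD, against 55.1, 102 and 79.8 CPM in H3i YPGal (2.14 ± 0.23). ATG31 (2.30 ± 0.29) and ATG2 (2.07 ± 0.35) rose as well, and the 10 were 3, 5 and 4 without H3i YPGal replicate 1, H3i YPD replicate 1 and H3i YPGal replicate 3. Of 34 tested genes of nitrogen catabolite repression 9 rose (26.5%) and 3 fell (8.82%), with a median of 0.12, against the same 21.4% and 22.2%. The 9 were 5 without H3i YPGal replicate 1. DAL80, a repressor of nitrogen genes that is itself nitrogen-controlled, had the largest rise of this list. It stood at 62.0, 102 and 70.4 CPM in H3i YPD, against 0, 0.491 and 2.29 CPM in H3i YPGal (5.45 ± 0.85).

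Of 22 genes of lipid synthesis 2 rose (9.09%) and 10 fell (45.5%), against 21.4% and 22.2% over all features. The 10 were 3, 6, 5 and 6 without H3i YPGal replicate 1, H3i YPD replicate 1, H3i YPGal replicate 3 and H3i YPD replicate 3. INO1, inositol synthase, stood at 1014 and 531 CPM in H3i YPD, against 12.9 and 75.4 CPM in H3i YPGal (replicates 1 and 3, 4.44 ± 0.85). OLE1, the fatty acid desaturase, fell (−3.18 ± 0.39), as did GAS1, a glucanosyltransferase of the cell wall (−2.81 ± 0.40). LYS1, of lysine synthesis, rose (2.76 ± 0.21), and so did GCV2, of glycine cleavage (3.13 ± 0.32). Amino acid synthesis genes under Gcn4 control did not rise as a list. Of 50 such genes 8 rose (16%) and 11 fell (22%), with a median of −0.14, against 21.4% and 22.2% over all features.

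Of 31 heat shock chaperone genes 15 rose (48.4%) and 3 fell (9.68%), against 21.4% and 22.2% over all features. The median was 1.21, and 8 or 9 rose without H3i YPGal replicate 1 or replicate 3. SSA4, an inducible Hsp70, stood at 4581, 8123 and 2295 CPM in H3i YPD, against 71.0, 113 and 109 CPM in H3i YPGal (5.001 ± 0.64). Of 26 genes of the unfolded protein response and the endoplasmic reticulum 7 rose and 8 fell, which with library totals was 10 and 3. The shares of 26.9% higher and 30.8% lower compare with 21.4% and 22.2% over all features, so the list had no single direction. KAR2, the Hsp70 of that compartment, stood at 3356, 5131 and 2203 CPM in H3i YPD, against 472, 974 and 499 CPM in H3i YPGal (2.11 ± 0.40), and its call was lost without H3i YPGal replicate 1 (edgeR adjusted p = 0.0501) or replicate 3 (0.0507). Its exchange factor SIL1 (1.99 ± 0.31) and the disulfide isomerase EUG1 (2.52 ± 0.37) rose, while SSS1, of the translocon, fell (−1.95 ± 0.25). The 8 that fell were 3, 4 and 4 without H3i YPGal replicate 1, H3i YPD replicate 1 and H3i YPGal replicate 3.

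Retrotransposon ORFs rose, a list chosen after their values were seen. Ty elements are yeast retrotransposons whose gag and gag-pol ORFs encode a particle protein and an enzyme polyprotein. The 91 features that RefSeq describes as gag or gag-pol summed to 5200, 36542 and 4499 CPM in H3i YPD, against 844, 12279 and 908 CPM in H3i YPGal, which is 6.16, 2.98 and 4.95 times as much in replicates 1, 2 and 3. WT replicates 1 and 3 held 680 and 771 CPM in YPD and 830 and 907 CPM in YPGal. Of the 91 features 49 passed the filter on low counts, and of these 35 rose and 0 fell, a count that the filter favours because a copy high in H3i YPD alone could pass; the sums above cover all 91. The difference from the WT response was called for 21. YBL100W-B stood at 571, 1658 and 405.1 CPM in H3i YPD, against 17.1, 64.2 and 15.4 CPM in H3i YPGal (4.47 ± 0.29). YDR034C-D stood at 580, 2037 and 492 CPM in H3i YPD, against 30.5, 244 and 22.5 CPM in H3i YPGal (3.96 ± 0.33). On the strands that replicate 2 kept, 4 of 4 called members had the same direction there. The count of 35 was 15 without H3i YPGal replicate 1, 14 without H3i YPGal replicate 3 and 22 without H3i YPD replicate 3.

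Ty copies are near-identical, and reads aligned to more than 1 place were not counted to genes. Such reads made up 23.5%, 18.5% and 21.5% of all reads in H3i YPD, against 13.9%, 6.68% and 11.4% in H3i YPGal. Every YPD library was above every YPGal library (exact two-sided permutation test, p = 0.10, the smallest that 3 against 3 allows). The other multicopy features that give such reads were not separated here, so the share due to Ty was not tested.

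**Figure D5:**
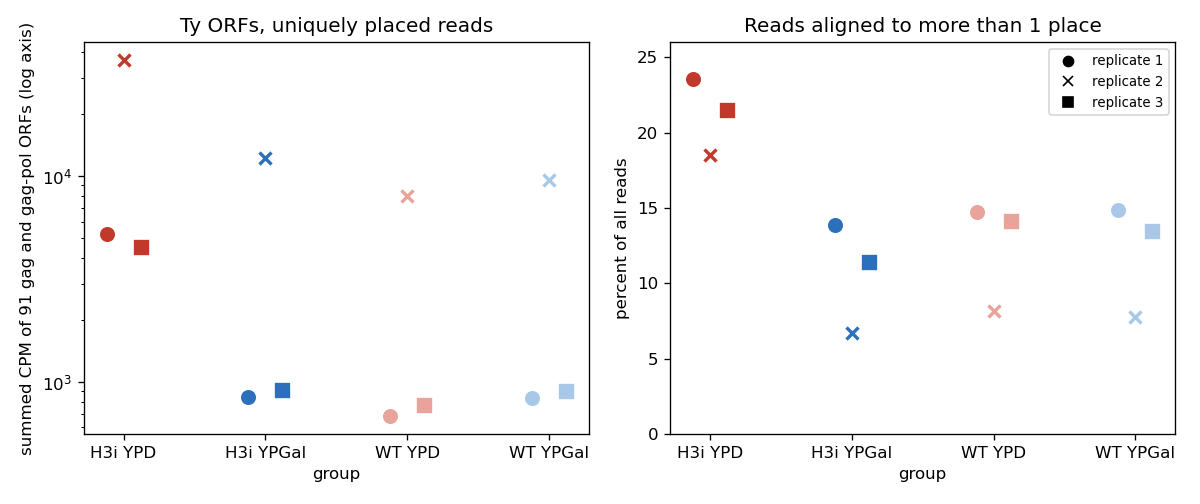
Left, summed CPM of the 91 gag and gag-pol ORFs in each library on a log axis; right, percent of all reads aligned to more than 1 place, with a marker for each replicate. H3i YPD stands at 5200 and 4499 CPM in replicates 1 and 3, against 844 and 908 CPM in H3i YPGal, and its 3 multiple-alignment shares of 18.5% to 23.5% lie above the 6.68% to 13.9% of H3i YPGal.

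Reads in no annotated feature numbered 8.49, 10.2 and 11.1 per 100 gene counts in H3i YPD, against 4.03, 8.02 and 6.43 in H3i YPGal (exact two-sided permutation test, p = 0.10). Of 674 ORF names without a RefSeq locus tag 337 passed the filter on low counts, which favours those high in H3i YPD, and of these 105 rose and 12 fell. Among noncoding RNAs chosen after their values were seen, HRA1 stood at 9.65, 8.52 and 6.97 CPM in H3i YPD, against 0, 0 and 0.0997 CPM in H3i YPGal, and RUF23 at 12.4, 5.59 and 25.0 CPM in H3i YPD, against 0, 0 and 0.299 CPM in H3i YPGal. Both calls were lost without H3i YPGal replicate 3 (edgeR adjusted p = 0.081 and 0.080). The count of 105 was 36 without H3i YPGal replicate 1, 13 without H3i YPGal replicate 3, 57 without H3i YPD replicate 1 and 48 without H3i YPD replicate 3. RRT7 had 13.8, 23.8 and 30.5 CPM in H3i YPD and 0 counts in all 3 H3i YPGal libraries, at least 116-fold higher over replicates 1 and 3 with a floor of 3 counts over the YPGal group, a call lost without H3i YPGal replicate 3 (edgeR adjusted p = 0.0611). FDH1, a formate dehydrogenase gene, stood at 190, 449 and 228 CPM in H3i YPD, against 0, 0.513 and 3.59 CPM in H3i YPGal (6.25 ± 0.71).

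Genes of other cell fates were also counted. Of all features tested 21.4% rose, and of ORFs at 5 to 20 CPM per kb in WT YPGal 65.6% rose. The meiosis list had 69.7% of its tested members higher, near the latter share, and the part of expression level in it was not tested. The list of meiosis and spore formation had 46 of 66 members that rose and 0 that fell (median 2.33), 26 without H3i YPGal replicate 1 and 20 without H3i YPGal replicate 3. LDS1, of the spore wall, stood at 136, 260 and 205 CPM in H3i YPD, against 0, 0.982 and 0.299 CPM in H3i YPGal (9.44 ± 0.83). The inducer IME1 did not pass the test (1.08 ± 0.43), while the kinase gene IME2 (2.75 ± 0.56) and the transcription factor gene NDT80 (1.16 ± 0.25) rose, calls that were lost without H3i YPGal replicate 3 (edgeR adjusted p = 0.0738 and 0.102), and for NDT80 also when H3i YPGal replicate 1 (0.0565) or the YPD library of replicate 3 (0.0605) was left out. All 5 flocculin genes rose, as FLO11 (3.62 ± 0.25), and of 30 PAU, DAN and TIR cell wall genes, many of them near-identical copies, 25 passed the filter on low counts, which favours those high in H3i YPD, and of these 23 rose and 0 fell.

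STE2, the receptor for alpha pheromone, stood at 490, 500 and 707 CPM in H3i YPD, against 575, 601 and 674 CPM in H3i YPGal. STE3, the receptor that alpha cells carry, stood at 120, 35.5 and 165 CPM in H3i YPD, against 5.01, 1.03 and 18.4 CPM in H3i YPGal, and did not pass the test (4.47 ± 1.58, edgeR adjusted p = 0.0518). In WT replicate 3 STE3 stood at 601 CPM in YPD and 354 CPM in YPGal, so that library enters the spread of this gene. MF(ALPHA)1, the alpha pheromone gene, stood at 53.8, 0.147 and 105.3 CPM in H3i YPD, against 0.417, 0.0669 and 3.19 CPM in H3i YPGal. It was called higher (edgeR adjusted p = 0.0469). The fitted log2 of 10.32 ± 3.55 is larger than the printed values of replicate 1 or 3 give. WT shares the replicate term and stood at 0 CPM in YPD and 0.792 CPM in YPGal in replicate 1, against 2325 and 2464 CPM in replicate 3. MF(ALPHA)1 had fitted log2 values from 4.14 to 15.24 over the alternative settings. Its call was lost when any of the 4 WT libraries was left out (edgeR adjusted p = 0.0587 to 0.0713) and when H3i YPGal replicate 1 (0.0876) or 3 (0.388) was. It was the only one of 11 tested a-specific and alpha-specific genes called in H3i. The pheromone response genes PRM1, for membrane fusion (3.21 ± 0.26), and FUS2 (3.19 ± 0.63) rose. In that list 9 of 24 genes rose (37.5%) and 9 fell (37.5%), against 21.4% and 22.2% over all features. FUS2 lost its call without H3i YPGal replicate 3 (edgeR adjusted p = 0.0616).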

How the data were processed

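Poly(A) RNA of H3i and WT in YPD and YPGal was sequenced, with 3 libraries in each of 4 groups. The deposited files hold read counts per gene, not normalized, as the authors made them. The submitters' processing notes name FastQC, HISAT2, SAMtools, Picard, DESeq2 and the genome build sacCer3. The rows of reads that belong to no gene were left out of totals and tests. Per the labels' protocols, replicates 1 and 2 were extracted with MagMax and replicate 3 with Trizol and glass beads, with another version of the library kit.

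Replicate 2 was kept out of the tests because it had lost many genes, and its values are printed beside the others. Counts of 8 libraries, replicates 1 and 3 of each group, were fitted with edgeR 4.0.16 (R 4.3.3, quasi-likelihood, TMM, filterByExpr) with group and replicate terms, and p-values were Benjamini-Hochberg adjusted over all features tested, with a threshold of 0.05. The difference of the H3i and WT responses was a contrast of the same fit. The replicate number marks a shared extraction and kit, and deviations of same-numbered libraries correlated at 0.440 to 0.703 over the group pairs. The titles call the replicates biological, and replicates 1 and 3 also differ in extraction and kit. The scripts were tested on simulated counts.

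Levels are CPM, and log2 values of replicate 2 used a pseudocount of 1 CPM. Motifs were searched in RefSeq R64. Gene names followed a rule on list membership and the size of called changes with at least 10 CPM, plus genes named in the text as chosen after their values were seen. The members and lists were chosen with earlier results of these data known. Alternatives were DESeq2 1.42.0, library totals, no filter, other sets of libraries, no replicate block and each library left out.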

Additional observations from a re-analysis of the deposited data

Results flagged for a closer look

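The H3i response to the medium minus the WT response was called for 1756 genes. For HHT2 it was −7.36 on the log2 scale. Among ribosomal protein genes it was −3.56 for RPS21A, −3.44 for RPL27B, −3.63 for RPL12A, −3.55 for RPL8B and −3.44 for RPL16A. It was 12.63 for PAU19, 10.66 for PAU8, 12.38 for PAU9, 10.01 for YDL152W, 10.37 for YDR194W-A and 10.12 for FDH1. Genes with libraries at 0 counts have fitted values that depend on the prior count, and PAU genes are near-identical copies.

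Reads outside the gene counts were also higher in H3i YPD. Reads aligned to more than 1 place averaged 21.2% ± 2.54 in H3i YPD and 10.7% ± 3.66 in H3i YPGal (SD, n = 3 each). Reads in no feature averaged 9.93 ± 1.32 per 100 gene counts in H3i YPD and 6.16 ± 2.01 in H3i YPGal (SD, n = 3 each). For both the exact two-sided permutation test gave p = 0.10, the smallest that 3 against 3 allows.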

How the results depend on the processing

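Without the replicate block 1183 genes were called in H3i, 597 higher and 586 lower, with 25 differences from the WT response and 5 calls in WT. All 12 libraries with a replicate block gave 539 in H3i (210 and 329), 202 differences and 11 in WT, and with a kit term 4 (0 and 4), 1 and 4. All 6 H3i libraries with a replicate block gave 0 (0 and 0; 1141 at an unadjusted p under 0.05 by edgeR, against 2945 calls by DESeq2 on the 8 libraries), with HHT2 at −7.76 and no longer called. Library totals gave 880 lower. In WT DESeq2 gave 657 and leaving out both replicate 3 libraries of WT gave 493. With each library, or both of those, left out the calls ranged over 1201 to 3063 in H3i (463 to 1535 higher, 719 to 1567 lower), 524 to 1779 for the differences and 4 to 493 in WT, and HHT2 over −8.22 to −6.89. Changes of uncalled genes turned sign with library totals, to 0.13 for HHF1, 0.37 for HTA1, 0.34 for HTB1 and 0.21 for RAP1. HTA1 and HTB1 turned to 0.16 and 0.17 without H3i YPGal replicate 1 and to 0.08 and 0.05 without H3i YPD replicate 3, with −0.26 and −0.33 as their lowest values when a library was left out, and HTA1 was 0.020 with DESeq2. With all 12 libraries and a replicate block CSE4 was 2.27, MRPL8 0.19 and FAR1 0.31, and CSE4 was 0.87 with all 6 H3i libraries; the cause was not tested. Depth was lowest in replicate 1, and n = 2 per group limits the precision.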
